A study of Magallana angulata with 9 samples.

Results

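Described here are 100 of the 28372 genes listed for Portuguese oyster (*Crassostrea angulata*) D-larvae. Their transcript levels were lower after a short cryoprotectant exposure and higher after freezing, thawing and recovery, always against fresh larvae of the same pool. The D-larva is the first shelled swimming stage of a bivalve. The 100 members were chosen on these libraries, by the following rule. Of the 17328 genes with a mean of 50 or more counts over the 9 libraries, 1594 had a mean difference, cryoprotectant exposed minus fresh, under -0.2 in log2 CPM, the reads of a gene scaled to the size of its library. In each replicate number the smaller of 2 differences was taken, fresh minus cryoprotectant exposed and cryopreserved minus fresh. The lowest of the 3 values was the score of the gene. Of the 1594 genes, 391 had a score above 0. Without the limit on the mean difference, 1088 of the 17328 genes did. The members are the 100 of the 391 genes with the highest scores, a number set by the rule. The levels of the members in all 9 libraries thus chose them, and these levels are given below as a description and with no test.

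Each of 3 larval pools was sampled in 3 conditions, 1 library per condition and pool. The cryopreserved larvae spent 3 min in a cryoprotectant solution at 4 °C and were frozen and kept for 2 months in liquid nitrogen. They were thawed at 37 °C for 10 s and left for 1 h at room temperature in a recovery bath of seawater. They were then collected and washed. The cryoprotectant exposed larvae spent the same time in the same solution, which held dimethyl sulfoxide at 10%, sucrose at 0.2 M and polyvinylpyrrolidone at 1%, and then had it diluted with seawater. The fresh larvae, the control, were only concentrated in filtered seawater. All 3 conditions used whole larvae from artificial fertilization of farmed breeders, pooled in large numbers for each library. Freezing, storage, thawing, the recovery bath and the washing came together in the cryopreserved larvae, so these steps cannot be told apart. In whole larvae, a lower share of a cell type and less RNA per cell cannot be told apart either.

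Dimethyl sulfoxide enters cells, whereas sucrose and polyvinylpyrrolidone stay outside. Sucrose draws water from the cells, and together these substances limit the ice that forms inside them. Exposure and its reversal are therefore an osmotic challenge, and freezing and thawing add ice, concentrated salts and rewarming. The amount of a transcript in a larva reflects both its synthesis and its decay. The genes are listed by NCBI gene numbers of the genome of the Pacific oyster (*Crassostrea gigas*), and 0 of them were found in the annotation at hand, that of the Portuguese oyster. Products, roles, positions and sequences of the members are therefore not described, nor could markers of the larval stage or of larval cell types be looked up.

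The library totals ran from 22367780 to 45990672 estimated counts. In each of the 3 pools the cryoprotectant exposed library had the highest total and the cryopreserved library the lowest, so that depth runs opposite to the level of the members. After thinning all libraries to 1 common total, an alternative chosen after seeing the data, 98 of the 100 members kept a score above 0 and 67 were again among the 100 highest. A total of 100 members passed the filter on low counts, with means between 50.8 and 7724 counts, and 1 member had a library with 0 counts. Libraries of the same condition differed from each other well beyond sampling noise.

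The scores of the members lay between 0.179 and 0.612, with a median of 0.210, and they fell steeply over the first 12 genes and slowly after that. The last members were gene 105318061, with a score of 0.180, and gene 105339607, with a score of 0.179. The first genes outside were gene 105327436 and gene 105322298, both with a score of 0.178. Gene 105339607 had 4.71, 2.59 and 2.80 CPM in cryopreserved, 2.51, 1.88 and 1.23 CPM in cryoprotectant exposed and 3.39, 2.13 and 1.84 CPM in fresh larvae of pools 1, 2 and 3. Just outside, gene 105327436 had 2.26, 4.83 and 2.84 CPM in cryopreserved, 1.36, 3.54 and 2.18 CPM in cryoprotectant exposed and 1.80, 4.07 and 2.50 CPM in fresh larvae. Both were highest in cryopreserved and lowest in exposed larvae of each pool, and the limit at rank 100 does not part distinct groups of genes. The exposure step set the score in 83 members and the cryopreservation step in the other 17. The mirrored rule, for genes raised by cryoprotectant and lowered after thaw, found 718 genes with a score above 0, against 391 here, and its gene at rank 100 had a score of 0.355.

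**Figure D1:**
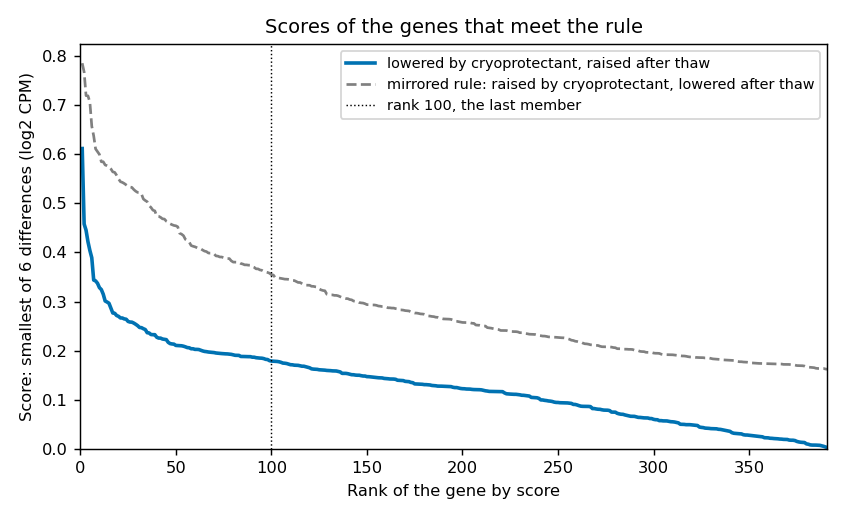
Score of each gene that met the rule (y axis, log2 CPM, the smallest of its 6 differences from fresh larvae) against its rank (x axis), for the genes lowered by cryoprotectant and raised after thaw (solid line) and for the mirrored rule (dashed line). The solid line passes rank 100 at 0.179 without a step, and the mirrored rule passes it at 0.355. Both lines are drawn up to rank 391, so the dashed line ends at 0.162 and leaves out the later ones of its 718 genes.

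Among the members, the rise in cryopreserved larvae was mostly larger than the fall in cryoprotectant exposed larvae. The mean difference over the 3 pools, cryopreserved minus fresh, ran from 0.22 to 3.52 on the log2 CPM scale, with a median of 0.74. It exceeded 1, a doubling, in 33 members and 2 in 2 members. The mean difference between cryoprotectant exposed and fresh larvae ran from -1.79 to -0.21, with a median of -0.35. It was below -0.5 in 14 members and below -1 in 1 member, gene 105323417, whose -1.79 rests on a difference of -4.38 in pool 1, where the exposed library had 0 counts. The other genes with a mean of 50 or more counts had medians of -0.05 for cryopreserved and -0.01 for cryoprotectant exposed larvae. Their differences were also wider for cryopreserved larvae, with quartiles of -0.34 and 0.26, against -0.10 and 0.10 for cryoprotectant exposed larvae. A larger cryopreserved than exposure difference is thus not particular to the members. In the members, the rise was larger than the fall in 95 on average over the pools, and in each of the 3 pools in 61.

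Pool 1, the larvae of replicate 1, had the largest rises. The median difference of the members between cryopreserved and fresh larvae was 0.85 in pool 1, 0.68 in pool 2 and 0.66 in pool 3. The largest of the 3 rises was in pool 1 in 52 members, in pool 2 in 31 and in pool 3 in 17. In the other genes the largest value was in pool 1 for 36.6%. The falls in cryoprotectant exposed larvae had medians of -0.34, -0.29 and -0.30 in pools 1, 2 and 3. The SD over the 3 pools had a median of 0.25 for the rise and 0.12 for the fall in the members, and of 0.28 and 0.13 in the other genes.

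**Figure D2:**
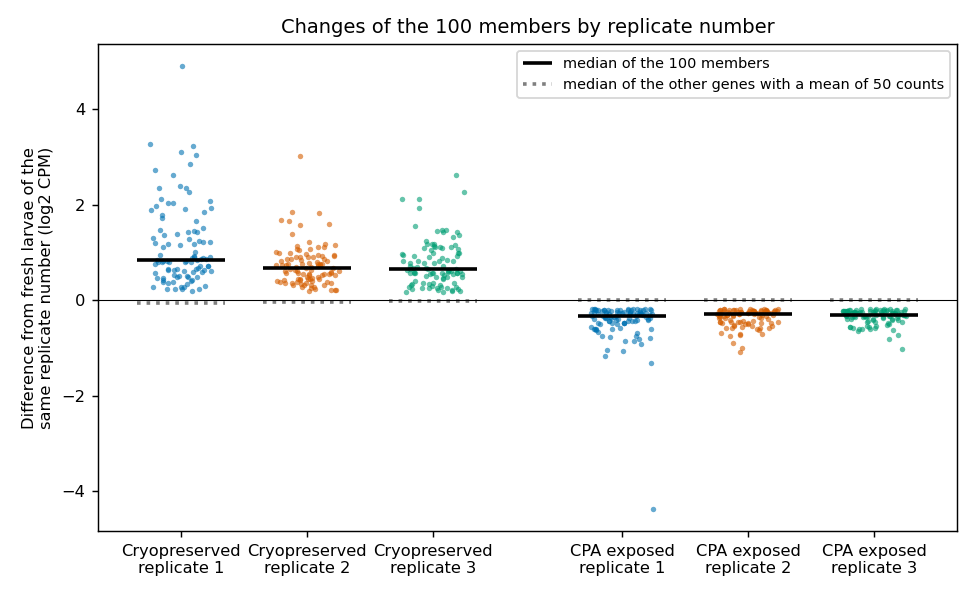
Difference of each of the 100 members from the fresh larvae of the same replicate number (y axis, log2 CPM) in cryopreserved and cryoprotectant (CPA) exposed larvae, 1 point per member, with the median of the members (black) and of the other genes with a mean of 50 counts (grey, dotted). By the rule every point lies above 0 in cryopreserved and below 0 in exposed larvae, and the points of cryopreserved replicate 1 reach the highest, up to 4.91.

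The summed level of the 100 members was 4635, 4247 and 4506 normalized CPM in the cryopreserved larvae of pools 1, 2 and 3. In cryoprotectant exposed larvae the sums were 1414, 2003 and 1942 CPM, and in fresh larvae 1882, 2534 and 2449 CPM. Within each pool the order of the sums, lowest in exposed and highest in cryopreserved larvae, follows from the rule. The cryopreserved sums lay close together and above all others, whereas the exposed and fresh sums overlapped between pools. The means were 4463 ± 198 in cryopreserved, 1786 ± 323 in cryoprotectant exposed and 2288 ± 355 CPM in fresh larvae (SD, n = 3 each). Of all counts of a library the members took 0.136% to 0.449%, and the 5 most abundant held 31.1% of their summed CPM.

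Gene by gene, and without regard to the pool, all 3 cryopreserved libraries exceeded all 3 fresh libraries in 63 members, where 13% of the 17328 genes did so. All 3 cryoprotectant exposed libraries lay below all 3 fresh libraries in 27 members, against 1.7% of the genes. All 3 conditions were separate, in the order cryopreserved, fresh and exposed from high to low, in 25 members, against 0.531% of the genes. These shares follow from the rule. In the remaining members the order held within each pool, while differences between the pools made the conditions overlap. Indeed, the spread of the fresh larvae over the 3 pools, highest minus lowest, had a median of 0.63 in the members and 0.50 in the other genes (log2 CPM). It was larger than the mean fall of the same gene in 71 members and larger than its mean rise in 39.

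Gene 105340465 had the highest score, 0.612. It had 98.3, 74.1 and 108 CPM in the cryopreserved larvae of pools 1, 2 and 3, against 8.17, 21.8 and 35.1 CPM in cryoprotectant exposed and 14.8, 46.1 and 70.9 CPM in fresh larvae. Exposed larvae thus had about the same part of the fresh level in every pool, with a mean log2 difference of -0.98 ± 0.12 (SD, n = 3). The rise was uneven, at 2.72 in pool 1, 0.68 in pool 2 and 0.61 in pool 3, since the cryopreserved levels were close and the fresh ones were not. Gene 105345571, with a smaller score of 0.210, had the same form, with rises of 2.40, 0.54 and 0.21 and falls to -0.92, -0.73 and -0.60 relative to fresh larvae in pools 1, 2 and 3. Both genes had their lowest fresh level in pool 1, as had 54 of the 100 members, against 34.2% of the other genes. Gene 105343617, at rank 9, was also lowest there, with 80.5, 28.5 and 68.9 CPM in cryopreserved, 6.35, 7.57 and 25.5 CPM in cryoprotectant exposed and 9.67, 15.3 and 32.3 CPM in fresh larvae.

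Gene 105333922, with the second highest score, had 13.3, 18.2 and 12.2 CPM in cryopreserved larvae, against 2.23, 4.18 and 3.88 CPM in cryoprotectant exposed and 5.09, 7.80 and 5.35 CPM in fresh larvae. The 3 conditions did not overlap, and the rise was even over the pools at 1.26 ± 0.11 (SD, n = 3, log2 CPM), while the fall was uneven, at -1.17, -0.89 and -0.46 in pools 1, 2 and 3. Gene 105344897 had 5.13, 22.7 and 21.2 CPM in cryopreserved, 1.80, 11.2 and 7.49 CPM in cryoprotectant exposed and 3.07, 15.3 and 10.9 CPM in fresh larvae. Its level in pool 1 was far below that in the other pools in every condition, so that the conditions overlapped, but the differences within pools were close, at 0.75 ± 0.20 for the rise and -0.58 ± 0.16 for the fall (SD, n = 3).

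Gene 105323417 stood apart among the members, since 1 library held 0 counts. It had 48, 38 and 99 counts in cryopreserved larvae, against 0, 31 and 72 counts in cryoprotectant exposed and 34, 36 and 99 counts in fresh larvae of pools 1, 2 and 3. At 0 counts, a level of up to 3 counts is possible in the exposed library of pool 1. Over the 9 libraries, 3 counts came to between 0.0586 and 0.149 CPM. The fitted log2 fold change between cryoprotectant exposed and fresh larvae was -0.95 over all libraries, -0.37 without exposed replicate 1 and -1.70 without exposed replicate 3. In pools 2 and 3 the differences were -0.54 and -0.44 on the log2 CPM scale.

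Most of the other members among the 12 highest scores were low in level. In genes 105340068, 105333085, 105327166, 105337701 and 105323681 no library exceeded 10.8 CPM, and gene 105327166 had 4.66, 7.77 and 4.47 CPM in cryopreserved, 1.61, 1.79 and 1.37 CPM in cryoprotectant exposed and 2.06, 2.41 and 2.05 CPM in fresh larvae, with no overlap between conditions. Gene 109617498 was more abundant and had the most even rise of the 12. It had 43.5, 44.5 and 49.6 CPM in cryopreserved larvae, against 21.6, 20.2 and 25.3 CPM in cryoprotectant exposed and 27.9, 27.7 and 31.7 CPM in fresh larvae. Its rise was 0.65 ± 0.02 and its fall -0.38 ± 0.07 (SD, n = 3, log2 CPM), and none of its conditions overlapped. Gene 105343247, which was picked out after its values were seen, was similarly even, with rises of 0.24, 0.21 and 0.21 and falls to -0.27, -0.39 and -0.31, and it had the smallest mean rise of the 100 members.

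**Figure D3:**
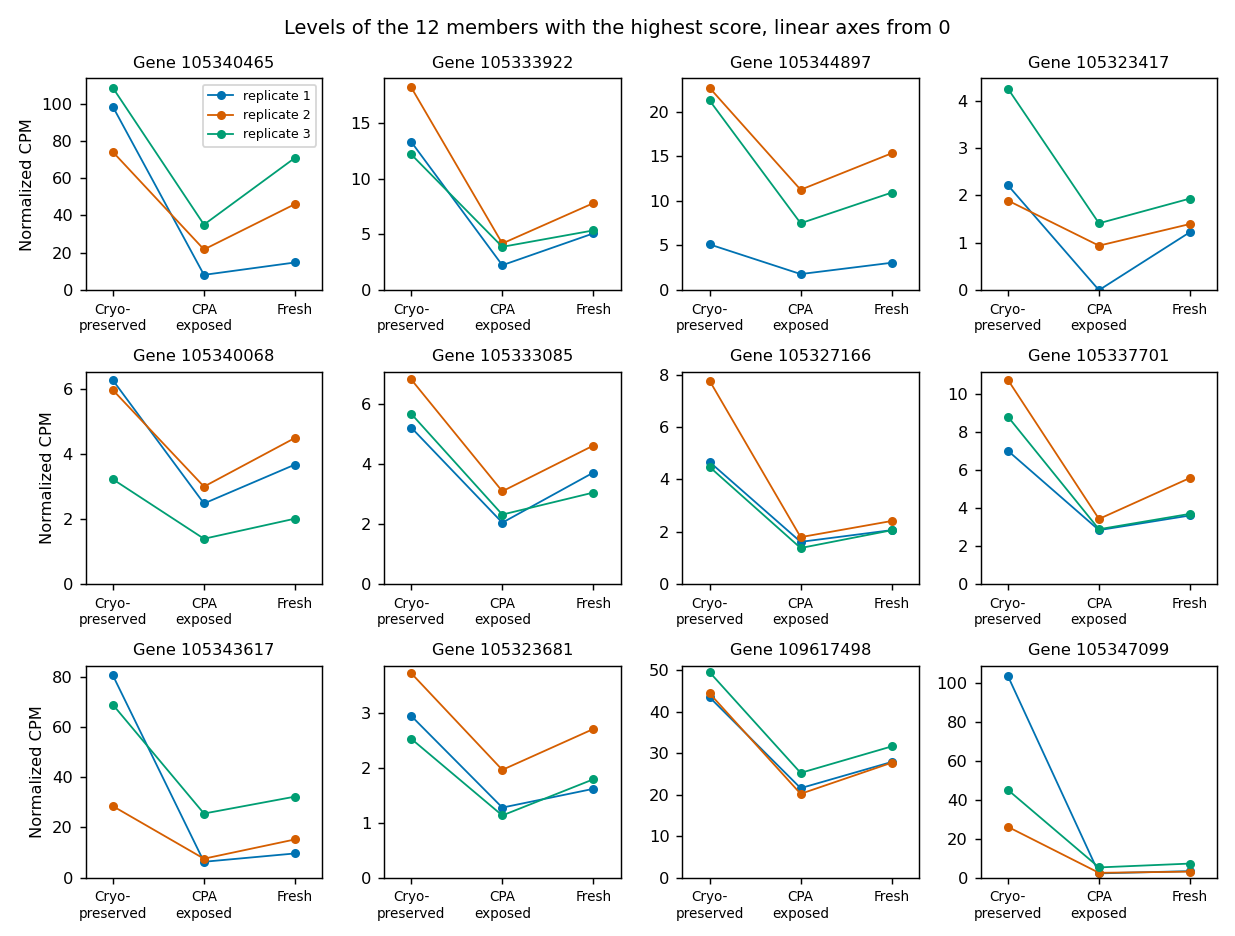
Normalized CPM (y axes, linear from 0) of the 12 members with the highest score in cryopreserved, cryoprotectant (CPA) exposed and fresh larvae (x axes), 1 line per replicate number, which marks the pool. Every line is lowest in exposed and highest in cryopreserved larvae, as the rule requires. The lines of gene 105344897 lie far apart by pool, and those of gene 109617498 nearly coincide.

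The members with the largest rise, by the edgeR fit, were genes 105347099, 105319208, 105323151 and 105345200. Gene 105347099 had 104, 26.1 and 45.1 CPM in cryopreserved larvae, against 2.23, 2.51 and 5.29 CPM in cryoprotectant exposed and 3.39, 3.14 and 7.27 CPM in fresh larvae. The cryopreserved libraries were well above the others, and the fitted log2 fold change against fresh larvae was 3.65. In the other 3 genes it was 1.95, 1.92 and 1.91, and the rises differed widely between pools. For gene 105345200, whose cryopreserved level was highest in pool 1, the fitted value was 1.07 without cryopreserved replicate 1. In gene 105319208 the differences were 3.23, 0.69 and 2.12 in pools 1, 2 and 3, and in gene 105345200 they were 2.86, 0.94 and 1.18 (log2 CPM). The largest falls, by the same fit, were those of genes 105340465, 105323417, 105333922 and 105345571, with log2 fold changes of -1.02, -0.95, -0.83 and -0.71 in cryoprotectant exposed against fresh larvae. For gene 105340465 the fitted value was -0.50 without fresh replicate 3, -0.63 without exposed replicate 1 and -1.55 without exposed replicate 3. For gene 105345571 it was -1.09 without fresh replicate 1, -0.44 without fresh replicate 3, -0.30 without exposed replicate 1 and -1.07 without exposed replicate 3. The pools differed in level and were unequally represented in these fits, but whether this moved the values was not tested.

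The 5 most abundant members had the pattern by the rule, as all members did, and had it at high counts. Gene 105340727 had 470, 421 and 389 CPM in cryopreserved larvae, against 123, 202 and 171 CPM in cryoprotectant exposed and 174, 232 and 218 CPM in fresh larvae. Gene 105341856 had 127, 182 and 158 CPM in cryopreserved, 79.9, 92.0 and 69.6 CPM in cryoprotectant exposed and 97.3, 105 and 102 CPM in fresh larvae, 3 separate ranges with the narrowest one in fresh larvae. In both genes the cryopreserved libraries were above all others. Genes 105322800, 105323151 and 105344816 averaged 301 ± 72.7, 294 ± 158 and 276 ± 34.1 CPM in cryopreserved larvae, 102 ± 57.2, 61.4 ± 20.2 and 120 ± 35.5 CPM in cryoprotectant exposed larvae, and 130 ± 56.8, 77.0 ± 15.9 and 157 ± 49.8 CPM in fresh larvae (SD, n = 3 each). Over all members the median of the mean level was 12.2 CPM, against 17.3 CPM in the other genes with a mean of 50 or more counts.

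The rise exceeded the 95% limit of counting error within the pool in 275 of 300 pairs of a member and a pool, and the fall did so in 219. The fall passed this limit in all 3 pools in 54 members and in 0 pools in 6 members, in which a fall is within counting error at this depth. Both steps passed it in all 3 pools in 51 members. These limits cover counting error only, and the members were chosen for these differences. The share of all genes that pass the limits was not worked out, so nothing can be read from these counts about the members. Of the estimates of the members, 35.2% were not whole numbers, against 52.0% in the other genes with a mean of 50 or more counts.

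A choice of genes on 2 pools, read in the pool that was left out, gives differences that the score did not use. The minimum mean of 50 counts and the scaling were still taken over all 9 libraries. With pool 1 left out, 74 of the 100 genes then chosen were below fresh in cryoprotectant exposed and above fresh in cryopreserved larvae of pool 1, against 26.8% of all 17328 genes. With pool 2 left out it was 68 of 100, against 21%, and with pool 3 left out 71 of 100, against 23.9%. Each pool has 1 library per condition, so these shares come without a test. The cryopreserved step recurred more often than the exposure step. In pools 1, 2 and 3, 96, 88 and 91 of the 100 genes were higher in cryopreserved than in fresh larvae, against 46.9%, 47.4% and 49.5% of all genes. In the same pools, 76, 80 and 79 were lower in cryoprotectant exposed than in fresh larvae, against 49.9%, 48% and 50.8%.

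The size of the exposure step was smaller in the pool left out than in the pools used to choose. The median difference between cryoprotectant exposed and fresh larvae was -0.19, -0.22 and -0.15 in pools 1, 2 and 3 when left out, and -0.37, -0.38 and -0.45 in the pools used. The median difference between cryopreserved and fresh larvae was 0.90, 0.67 and 0.76 in the pools left out, and 0.60, 0.76 and 0.94 in those used. In all genes these medians were within 0.05 of 0 in every pool left out. After thinning every library to the same total, 78, 70 and 76 of the 100 genes showed both steps in pools 1, 2 and 3, against 26.5%, 21.7% and 24.5% of all genes. Of the 100 members, 23 were chosen on every pair of pools and 28 on none of the pairs. A score on 2 pools cannot be below the score on all 3. The lowest score chosen was 0.229, 0.246 and 0.277 with pools 1, 2 and 3 left out. The 12 members with the highest scores, at 0.315 or more, thus had to be among the 23.

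**Figure D4:**
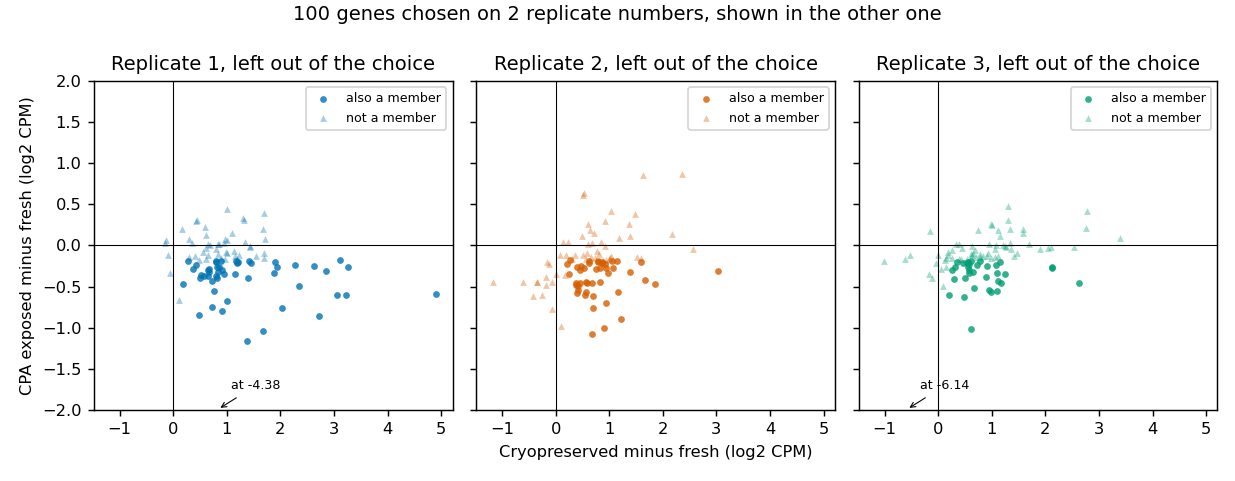
Difference of cryopreserved (x axes) and of cryoprotectant (CPA) exposed larvae (y axes) from fresh larvae, both in log2 CPM, for the 100 genes chosen on 2 replicate numbers, shown in the one left out. Circles are genes that are also among the 100 members and triangles are those that are not, and genes below the axis are marked with their value. The lower right part, with both steps as in the pools used, holds 74, 68 and 71 of the 100 genes.

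For completeness, the members were looked up in the fit across all 23052 genes that passed the filter (edgeR's quasi-likelihood test, Benjamini-Hochberg adjusted p under 0.05). Since the rule used these contrasts, nothing can be read from the following counts about the members. Between cryopreserved and fresh larvae, 19 members were called higher, against 3.04% of all genes, and with the pools as a block there were 80, against 10.8%. At an unadjusted p under 0.05 there were 61, against 9.11%, and 95 with the block, against 17.6%. Without 1 of the fresh or cryopreserved libraries the count was between 3 and 12, against 0.898% to 2.34% of all genes, with both lowest without fresh replicate 1. With an absolute log2 fold change over 1.5 as well, the thresholds of the study, 5 members were called, against 0.833%, and 12 with the block, against 1.65%, while without fresh replicate 2 it was 0, against 0.573%. Between cryopreserved and cryoprotectant exposed larvae, 50 members were called higher, against 3.9% of all genes, and 99 with the block, against 12.8%. The count was 19 without exposed replicate 1, against 1.61% of all genes, 32 and 30 without exposed replicates 2 and 3, against 2.22% and 2.24%, and 31 without cryopreserved replicate 1, against 2.36%. By the thresholds of the study it was 17, against 1.07%, and 28 with the block, against 1.84%, with 11 without cryopreserved replicate 1, against 0.755%, and 7 without exposed replicate 1, against 0.568%.

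Between cryoprotectant exposed and fresh larvae, 0 members were called lower in the edgeR fit, against 0% of all genes. At an unadjusted p under 0.05 there were 8 members, against 0.126% of all genes. DESeq2 called 0 members, against 0.00434% of all genes, with 9 at an unadjusted p under 0.05, against 0.126%. Limma-voom called 0 members, against 0% of all genes, with 7 at an unadjusted p under 0.05, against 0.134%. The block over all 9 libraries gave 0 as well, with 41 members at an unadjusted p under 0.05, against 0.855%. With the block and without the cryopreserved libraries, edgeR called 24 members lower, against 0.273% of all genes.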

How the data were processed

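Poly(A) RNA of 9 libraries of D-larvae was sequenced. The authors filtered the reads with BBTools and SortMeRNA, used the *Crassostrea gigas* genome as reference and deposited estimated counts per gene from Salmon 1.1, not normalized. Of these estimated counts, 38.2% are not whole, and they were rounded here. Columns were assigned by the column numbers in the labels. CPM were normalized by TMM, and the rule used log2 CPM with a prior count of 2. The fit in edgeR 4.0.16 (R 4.3.3, quasi-likelihood test, prior count 0.125) had condition as its factor and took genes that reached 5 counts in 3 or more libraries. DESeq2 1.42.0 and limma 3.58.1 (voom) were alternatives, besides other scalings, filters, library subsets and settings of the rule.

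The study exposed each pool to the 3 conditions. Libraries with the same number deviated together from the means of their conditions (r of 0.513 to 0.863 in 9 pairs), so numbers were taken as pools. Replicates differed from each other, with chi-square values of 72.6 to 189 per degree of freedom. The scripts were tested on simulated data.

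The members, the lists and the tests were chosen with earlier results of these data known. The genes named are the 12 members with the highest score, the 5 most abundant, the 4 that rose most and the 4 that fell most in the edgeR fit, and the 2 just inside and the 2 just outside the limit. Gene 105343247 was added after its values were seen. Lists by gene product could not be applied, since the gene numbers carry no names here. Floors and limits cover counting error only. The p-values of fits without the block measure the spread between the libraries of a condition, which come from the 3 pools. Those of fits with the block measure the spread left after differences between the pools are taken out.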

Additional observations from a re-analysis of the deposited data

How the results depend on the processing

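The rule kept most members under other scalings and settings, with 92 of 100 under RLE, 100 and 98 with prior counts of 0.5 and 5, 90 and 89 with mean counts of 20 and 100, and 99 without the limit on the mean change. It kept 62 with library size only, which moves the median of all genes between cryopreserved and fresh larvae to -0.20 (log2) and leaves 87 members with a score above 0. It kept 44 with the mean over pools as the score, and between 34 and 51 with 1 pool left out. Both steps recurred in the pool left out in 68 to 84 of 100 genes with RLE, library size only, prior count 0.5 or thinning. Of all genes 15.9% to 29.0% had both, the highest where 84 did. Thinning was chosen after seeing the data.

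The counts of members called depended on the fit. For cryopreserved against fresh larvae, 19 became 6 with library size only, 49 with DESeq2, 8 with the 6 libraries compared, 80 with the replicate block and 53 with the block and 6 libraries. It was between 3 and 16 with 1 library left out. By the thresholds of the study, 5 became 1, 13, 2, 12 and 12 under the same settings, and between 0 and 6 with 1 library left out. For cryopreserved against cryoprotectant exposed larvae, 50 became 32, 76, 28, 99 and 86 under the same settings, and between 19 and 44 with 1 library left out. By the thresholds of the study, 17 became 26 with DESeq2 and 28 with the block, and between 7 and 18 with 1 library left out. For cryoprotectant exposed against fresh larvae, the block with 6 libraries gave 24, against 0.273% of all genes, and each library left out gave 0. The shares of all genes called moved with the counts of members. For cryopreserved against fresh larvae, 3.04% became 1.27%, 6.26%, 1.67%, 10.8% and 6.05% under these settings, and 0.898% to 2.55% with 1 library left out. By the thresholds of the study, 0.833% became 0.447%, 1.2%, 0.685%, 1.65% and 1.29%, and 0.464% to 0.872% with 1 library left out. For cryopreserved against cryoprotectant exposed larvae, 3.9% became 2.17%, 7.48%, 2%, 12.8% and 6.92%, and 1.61% to 3.19% with 1 library left out. By the thresholds of the study, 1.07% became 1.41% with DESeq2 and 1.84% with the block, and 0.568% to 1.14% with 1 library left out. The cause of these differences was not tested, except that fits with 1 library less have fewer samples.

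The median log2 fold change of the members between cryopreserved and fresh larvae was 0.73, with 0.55 under library size only and between 0.68 and 0.86 with 1 library left out. Between cryoprotectant exposed and fresh larvae it was -0.34, with -0.39 under library size only and between -0.43 and -0.27 with 1 library left out. Without the pairing of pools, leaving out 1 library turned the fitted change between cryoprotectant exposed and fresh larvae above 0 in 5 named members. Over the libraries left out it lay between -1.45 and 0.075 for gene 105343617 and between -0.96 and 0.037 for gene 105347099, both highest without fresh replicate 3. It lay between -0.76 and 0.029 for gene 105322800, highest without exposed replicate 1. For gene 105345200 it lay between -0.73 and 0.10, with values above 0 without fresh replicate 2 and without exposed replicate 3 (0.0047). For gene 105318061 it lay between -0.75 and 0.10, with values above 0 without fresh replicate 3 and without exposed replicate 1 (0.031). The replicate block was fitted with all 9 libraries only, and no named member changed direction there. This is no check on the values above, since the rule requires the same direction in each pool.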
